A study of Homo sapiens with 12 samples.

Results

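The 36 genes described here encode integrin chains and the proteins that tie them to the actin cytoskeleton at focal adhesions. They were chosen by gene symbol, with earlier results of these data known, and are 36 of the 28395 gene rows of the count table: 11 integrin α chains, 6 β chains and 19 adhesion proteins of the cytoplasm. RNA was sequenced from BEAS-2B, human bronchial epithelium made into a permanent line with viral genes. The 12 libraries form 4 groups of 3, called biological triplicates in the labels. They are cells given 40 pM TGF-β1 for 24 h followed by 30 nM dexamethasone for 4 h (the combined treatment), TGF-β1 alone, dexamethasone alone, and untreated controls. All 4 groups had first spent 24 h in medium free of serum and steroid, and the vehicle of the treatments is not given in the sources used here. Dexamethasone is a synthetic glucocorticoid, and the study's title concerns loss of glucocorticoid response after TGF-β1. The cells are 1 immortalised line in monoculture, and the growth protocol names A549 cells whereas the other label fields name BEAS-2B.

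Integrins are pairs of an α and a β chain that span the plasma membrane and bind matrix proteins outside the cell. Inside, talins and kindlins bind the β chain and switch it to its active form, vinculin and tensins join the complex to actin, and the kinase FAK with its substrates paxillin and p130Cas passes on the signal. Airway epithelial cells rest on laminin through integrins that contain the α3 and α6 chains, and the αvβ6 and αvβ8 pairs bind latent TGF-β and release it in active form.

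Total counts were 5861591 to 7008203 in replicates 1 and 2 and 17968961 to 19727235 in replicate 3 of every group, so replicate 3 carries the smallest counting error. All 36 genes passed the filter on low counts that left 13469 genes for testing. Libraries with the same replicate number deviated together, and the number was also fitted as a block. The 8 epithelial markers, all tested, together reached 3140 to 5146 CPM with the combined treatment, 2411 to 3850 CPM with TGF-β1, 2506 to 3601 CPM with dexamethasone and 2084 to 2581 CPM in controls. With TGF-β1 against control 3 of them fell, KRT18 (-1.27), KRT19 (-1.63) and CDH1 (-0.65, log2 scale), and KRT17 rose (1.69, adjusted p of the 4 at most 0.00421). KRT18 averaged 148.5 ± 7.55 CPM in TGF-β1 cells and 359 ± 21.6 CPM in control cells, whereas KRT17 averaged 1648 ± 441 CPM in TGF-β1 cells and 513 ± 161 CPM in control cells (SD, n = 3 each). The 6 fibroblast markers together reached 1184 to 1453 CPM with the combined treatment, 917 to 1006 CPM with TGF-β1, 553 to 775 CPM with dexamethasone and 475 to 633 CPM in controls, with DCN and LUM under 1 CPM in every library. Of the 6, 3 were high enough to test and 2 of those rose with TGF-β1. Marker sums for endothelium, leukocytes, platelets and transcripts abundant in A549 cells were at most 5.10, 21.3, 3.40 and 39.9 CPM. The fibroblast sum and these 4 epithelial markers moved with TGF-β1 as many of the genes below did, and their part in those results was not tested. In bulk RNA a change in the mix of cells and a change in RNA per cell cannot be told apart.

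Levels are CPM, read counts scaled to the size of their library after TMM normalisation. Each change is a log2 fold change and its standard error (SE), fitted by edgeR and tested by quasi-likelihood, and is called where the Benjamini-Hochberg adjusted p over all 13469 genes was under 0.05. Every comparison against control uses the same 3 control libraries, and the comparisons of the combined treatment share its 3 libraries, so their values are given side by side and are not separate evidence.

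**Figure D1:**
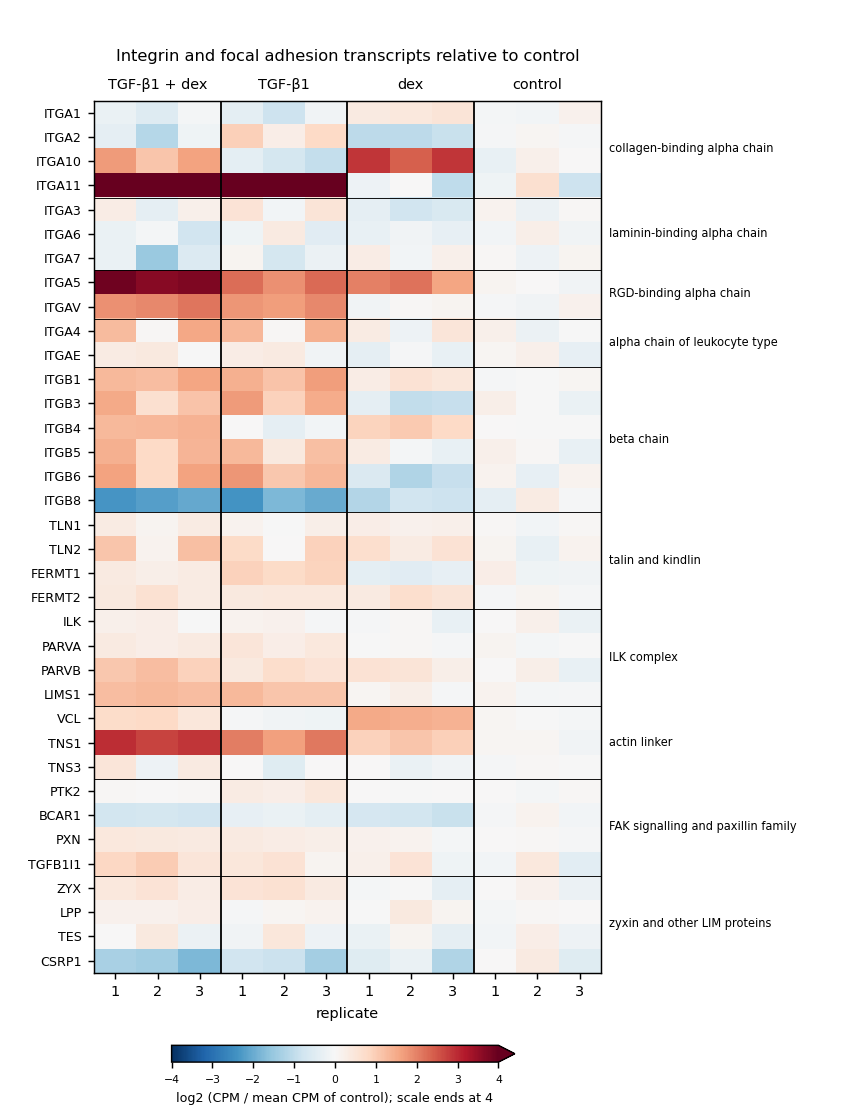
Level of each of the 36 genes in each of the 12 libraries as log2 of its CPM over the mean CPM of the 3 controls, with red for higher and blue for lower and a scale that ends at 4. Columns run from the combined treatment to control (replicates 1 to 3), rows are grouped by role, and the strongest colours are those of ITGA11 in the 6 libraries with TGF-β1, ITGA5 and TNS1 in the combined treatment, and ITGA10 with dexamethasone.

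The promoter sequences of 5 genes picked for changes of unlike kinds are shown first, because both agents act through DNA-binding proteins. SMADs bind the short element CAGAC, and the glucocorticoid receptor binds a longer palindrome. Other members that moved far, such as TNS1, are not shown. Each sequence is the 250 bases before and 50 after 1 annotated start from RefSeq on GRCh38.p14, written in the direction of the gene. Capitals mark each CAGAC and its reverse complement GTCTG. The sequences lie at chr15:68432114-68432413 (minus strand) for ITGA11, which rose with TGF-β1, at chr12:54419217-54419516 (minus strand) for ITGA5, which rose with either agent, at chr1:145910001-145910300 (minus strand) for ITGA10, which rose with dexamethasone, at chr7:20330650-20330949 (plus strand) for ITGB8, which fell with either, and at chr10:73997866-73998165 (plus strand) for VCL, whose rise with dexamethasone differed with TGF-β1.
ITGA11: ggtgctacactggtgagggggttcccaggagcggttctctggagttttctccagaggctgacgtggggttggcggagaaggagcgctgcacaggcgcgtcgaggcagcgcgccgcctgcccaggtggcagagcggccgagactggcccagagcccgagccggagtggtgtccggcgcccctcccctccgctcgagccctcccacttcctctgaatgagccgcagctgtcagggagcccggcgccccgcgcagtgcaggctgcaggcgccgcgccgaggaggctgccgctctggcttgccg
ITGA5: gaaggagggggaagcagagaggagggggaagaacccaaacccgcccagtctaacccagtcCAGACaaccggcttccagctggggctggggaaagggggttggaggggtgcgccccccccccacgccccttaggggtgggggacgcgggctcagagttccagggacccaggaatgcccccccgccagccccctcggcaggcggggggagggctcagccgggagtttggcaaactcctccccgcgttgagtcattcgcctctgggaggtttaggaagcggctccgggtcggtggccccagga
ITGA10: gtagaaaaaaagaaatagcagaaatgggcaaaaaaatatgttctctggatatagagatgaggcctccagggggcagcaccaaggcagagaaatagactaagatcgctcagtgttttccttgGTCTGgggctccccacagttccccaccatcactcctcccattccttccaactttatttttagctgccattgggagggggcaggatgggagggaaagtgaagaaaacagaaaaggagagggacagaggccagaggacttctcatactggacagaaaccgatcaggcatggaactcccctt
ITGB8: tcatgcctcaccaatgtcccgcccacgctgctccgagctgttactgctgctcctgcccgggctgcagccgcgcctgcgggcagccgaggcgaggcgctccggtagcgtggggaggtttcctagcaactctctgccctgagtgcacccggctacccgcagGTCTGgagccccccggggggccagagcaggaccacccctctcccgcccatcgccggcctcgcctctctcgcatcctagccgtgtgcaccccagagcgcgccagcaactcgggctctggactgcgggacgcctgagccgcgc
VCL: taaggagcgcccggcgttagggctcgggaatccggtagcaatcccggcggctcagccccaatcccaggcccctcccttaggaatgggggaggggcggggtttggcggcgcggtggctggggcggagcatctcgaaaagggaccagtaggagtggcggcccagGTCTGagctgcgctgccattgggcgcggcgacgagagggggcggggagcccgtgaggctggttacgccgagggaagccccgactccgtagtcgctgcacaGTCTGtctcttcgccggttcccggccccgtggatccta

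The ITGA11 window held no CAGAC on either strand, those of ITGA5, ITGA10 and ITGB8 held 1 each, and that of VCL held 2. Over the 29 members with an entry, 29 of 60 promoters (48.3%) held CAGAC on either strand, against 45.3% of all 35116 promoters in the table, a share close to the background. The palindrome GTCTAGAC, which contains neither CAGAC nor GTCTG, was in 0 of the 60 (0.202% of all promoters), and the perfect palindrome of the canonical glucocorticoid response element, searched on both strands, was in 0 of the 60 (0.00285% of all). A match is a stretch of letters, and the absence of one says only that these letters are not in this window.

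TGF-β1 against control asked what the cytokine did to adhesion transcripts without the steroid. Of the 36 genes, 17 rose and 4 fell, against a background of 16.2% of all tested genes higher and 16.6% lower (32.8% in either direction). The median of the 36 was 0.37 on the log2 scale, and that of all tested genes was -0.0090. Integrin chains supplied 9 of the rises and 2 of the falls, and the 10 rises of at least 2-fold were ITGA11, ITGA5, ITGAV, ITGA4, ITGB1, ITGB3, ITGB5, ITGB6, LIMS1 and TNS1. ITGB8 was the single fall of that size. The shares of all tested genes given above have no 2-fold cut, and the share at that size was not counted. With the replicate block 22 rose and 5 fell, against 24.6% of all tested genes higher and 25.5% lower (50.0% in either direction). When libraries were scaled by their size alone, the median over all genes moved to -0.22 and there were 12 rises and 7 falls in place of 17 and 4, against 9.29% of all tested genes higher and 32.2% lower at that scaling, so the directions are relative to the median gene.

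Of the 4 collagen-binding α chains, ITGA11 and ITGA2 rose, ITGA10 fell and ITGA1 did not pass the test. ITGA11 pairs with the β1 chain as a receptor for fibrillar collagen and is known from fibroblasts. It had 188, 109 and 206 CPM in combined-treatment libraries, 251, 185 and 279 CPM in TGF-β1 libraries, 1.92, 2.23 and 1.10 CPM in dexamethasone libraries and 1.97, 3.42 and 1.26 CPM in control libraries. All 6 libraries with TGF-β1 lay above all 6 without it (TGF-β1 against control: log2 fold change 6.97, SE 0.39, adjusted p = 2.74e-07). ITGA2, the α chain of the main collagen receptor of epithelial cells and platelets, had 18.6, 10.8 and 20.9 CPM in combined-treatment libraries, 46.3, 28.8 and 41.0 CPM in TGF-β1 libraries, 11.4, 11.6 and 12.8 CPM in dexamethasone libraries and 22.9, 25.3 and 22.9 CPM in control libraries. The TGF-β1 libraries were above the controls (log2 fold change 0.71, SE 0.20, adjusted p = 0.0135), and both groups with dexamethasone lay below them. ITGA10, a collagen receptor chain known from cartilage, had 42.5, 28.5 and 39.8 CPM in combined-treatment libraries, 9.99, 8.04 and 6.73 CPM in TGF-β1 libraries, 95.1, 68.1 and 94.4 CPM in dexamethasone libraries and 10.8, 15.2 and 13.4 CPM in control libraries. It was lowest with TGF-β1 (log2 fold change -0.72, SE 0.21, adjusted p = 0.0192) and highest with dexamethasone, with no overlap between any of the 4 groups. ITGA1, which encodes the α1 chain, was at -0.42 (adjusted p = 0.0513), and was called lower with the replicate block (adjusted p = 0.000697).

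The chains that recognise the Arg-Gly-Asp motif of fibronectin and vitronectin both rose with TGF-β1. ITGA5, the α chain of the classical fibronectin receptor, had 1687, 1419 and 1523 CPM in combined-treatment libraries, 544, 408 and 556 CPM in TGF-β1 libraries, 464, 517 and 341 CPM in dexamethasone libraries and 124, 116 and 103 CPM in control libraries. Each agent alone raised it above every control (TGF-β1 against control: log2 fold change 2.14, SE 0.16, adjusted p = 3.68e-07), and the combined treatment lay above all other libraries. ITGAV pairs with the β chains ITGB1, ITGB3, ITGB5, ITGB6 and ITGB8. It had 512, 547 and 635 CPM in combined-treatment libraries, 484, 453 and 546 CPM in TGF-β1 libraries, 131, 149 and 155 CPM in dexamethasone libraries and 139.9, 130.1 and 160.0 CPM in control libraries. The 6 libraries with TGF-β1 stood above the 6 without it (log2 fold change 1.78, SE 0.11, adjusted p = 5.05e-08), and dexamethasone libraries overlapped the controls.

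Of the α chains better known from leukocytes, ITGA4, which with β1 binds VCAM1 and fibronectin, had 5.67, 2.44 and 7.0 CPM in combined-treatment libraries, 5.96, 2.47 and 6.39 CPM in TGF-β1 libraries, 2.96, 2.08 and 3.35 CPM in dexamethasone libraries and 2.73, 2.02 and 2.37 CPM in control libraries. Replicate 2 of both groups with TGF-β1 lay within the control range, so the groups overlap (log2 fold change 1.10, SE 0.38, adjusted p = 0.0398). ITGAE, the partner of β7 in binding E-cadherin, did not pass the test (0.20, adjusted p = 0.432). The laminin-binding chains also did not: ITGA3 was at 0.35 (adjusted p = 0.213; 0.00416 with the block, which calls it higher), ITGA6 at -0.046 (adjusted p = 0.891) and ITGA7, known from muscle, at -0.26 (adjusted p = 0.45).

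Among the 6 β chains, ITGB1, ITGB3, ITGB5 and ITGB6 rose, ITGB8 fell, and ITGB4, the hemidesmosome chain that pairs with α6, was at -0.15 (adjusted p = 0.271). ITGB1, the common partner of most α chains, had 1834, 1750 and 2245 CPM in combined-treatment libraries, 1992, 1663 and 2387 CPM in TGF-β1 libraries, 925, 1106 and 1035 CPM in dexamethasone libraries and 721, 734 and 791 CPM in control libraries. The groups with TGF-β1 were highest, the dexamethasone group next and the controls lowest, with no overlap between those 3 levels (TGF-β1 against control: log2 fold change 1.43, SE 0.13, adjusted p = 1.99e-06). ITGB3, part of a vitronectin receptor, had 116, 63.2 and 89.3 CPM in combined-treatment libraries, 134, 77.5 and 113 CPM in TGF-β1 libraries, 31.5, 20.7 and 21.6 CPM in dexamethasone libraries and 48.1, 40.0 and 34.1 CPM in control libraries. TGF-β1 libraries were above the controls (log2 fold change 1.42, SE 0.26, adjusted p = 0.00141). ITGB5, another vitronectin receptor chain, had 375, 244 and 359 CPM in combined-treatment libraries, 349, 186 and 323 CPM in TGF-β1 libraries, 179, 135 and 114 CPM in dexamethasone libraries and 163, 145 and 116 CPM in control libraries. It too was higher in all TGF-β1 libraries than in any control (log2 fold change 1.02, SE 0.26, adjusted p = 0.0119), by the smallest margin in replicate 2.

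The chains that release TGF-β from its latent complex moved apart. ITGB6, an epithelial chain that pairs with αv alone, had 18.8, 10.8 and 19.0 CPM in combined-treatment libraries, 21.0, 13.1 and 15.5 CPM in TGF-β1 libraries, 4.14, 2.68 and 3.30 CPM in dexamethasone libraries and 6.82, 4.97 and 6.81 CPM in control libraries. It rose with TGF-β1 (log2 fold change 1.38, SE 0.24, adjusted p = 0.000485), and dexamethasone libraries lay below the controls. ITGB8, the other αv partner with this activity, had 14.9, 16.9 and 18.6 CPM in combined-treatment libraries, 14.9, 22.1 and 19.3 CPM in TGF-β1 libraries, 34.6, 45.8 and 43.6 CPM in dexamethasone libraries and 60.0, 97.6 and 74.0 CPM in control libraries. It fell with TGF-β1 (log2 fold change -2.03, SE 0.18, adjusted p = 2.04e-06), and the 6 libraries with TGF-β1 lay below the dexamethasone libraries, which lay below the controls. Of the annotated exon bases, 20.6% of those of ITGB6 and 51.6% of those of ITGB3 are shared with another annotated gene that has no row of its own in the count table, so reads from those overlaps cannot be told apart.

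**Figure D2:**
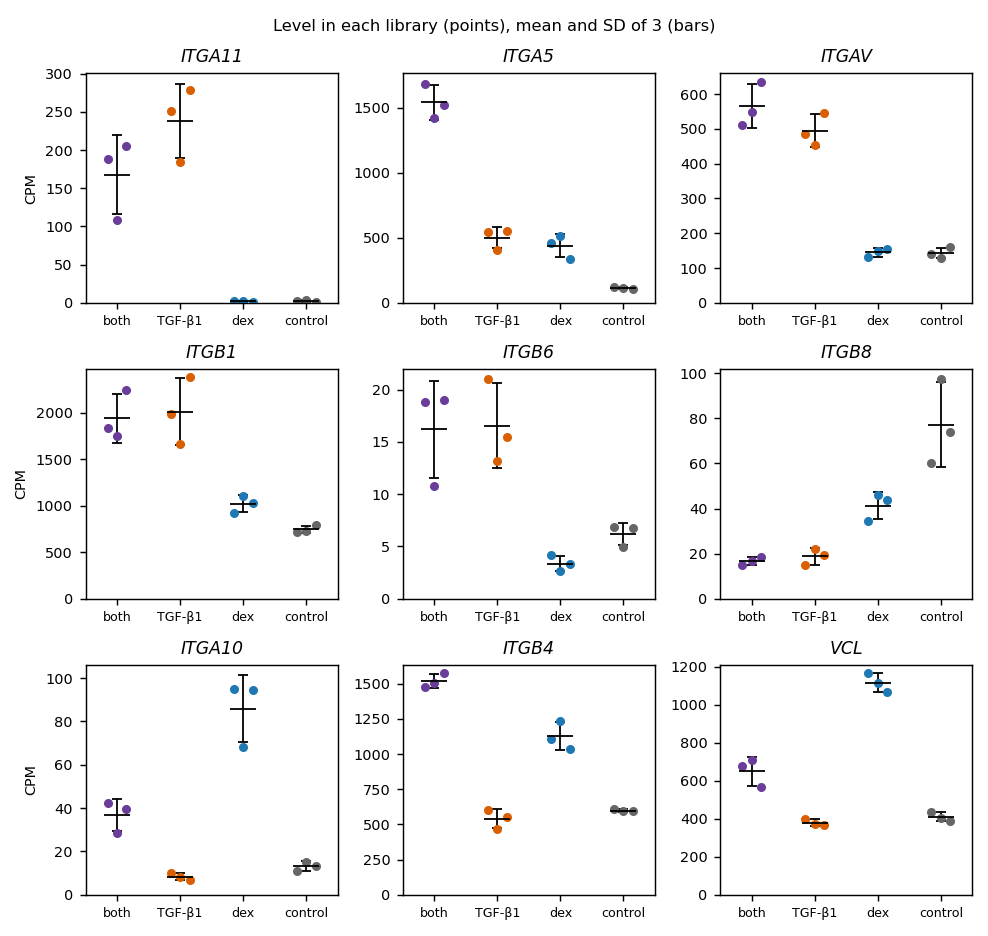
CPM of 9 genes in each library (points, 3 a group), with the group mean and SD as bars, where "both" is the combined treatment and each panel has its own axis from 0. ITGA11, ITGAV, ITGB1 and ITGB6 are high in both groups with TGF-β1, ITGB8 is highest in control, ITGA10 and VCL are highest with dexamethasone alone, and ITGA5 is highest in the combined treatment.

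Of the talins and kindlins, the 2 kindlin genes rose and the 2 talin genes did not pass the test. FERMT1, the kindlin of epithelial cells, had 28.5, 26.1 and 27.8 CPM in combined-treatment libraries, 41.5, 37.1 and 40.7 CPM in TGF-β1 libraries, 16.7, 16.1 and 17.6 CPM in dexamethasone libraries and 26.4, 19.6 and 20.2 CPM in control libraries. TGF-β1 libraries were highest and dexamethasone libraries lowest, with the combined and control libraries overlapping between them (TGF-β1 against control: log2 fold change 0.86, SE 0.12, adjusted p = 5.97e-05). FERMT2, the kindlin expressed in most tissues, had 184, 213 and 175 CPM in combined-treatment libraries, 184, 185 and 188 CPM in TGF-β1 libraries, 177, 223 and 200.5 CPM in dexamethasone libraries and 135, 149 and 134 CPM in control libraries. All 3 treated groups exceeded the controls (TGF-β1 against control: log2 fold change 0.42, SE 0.10, adjusted p = 0.00395). TLN1 was at 0.13 (adjusted p = 0.289) and TLN2 at 0.62 (adjusted p = 0.123); with the block they were called higher (adjusted p = 0.0309 and 0.00228).

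In the complex of the integrin-linked kinase ILK with its PINCH and parvin partners, LIMS1 and PARVA rose. LIMS1, which encodes PINCH1, had 75.3, 79.5 and 75.2 CPM in combined-treatment libraries, 79.4, 68.8 and 68.6 CPM in TGF-β1 libraries, 33.7, 38.1 and 31.3 CPM in dexamethasone libraries and 35.0, 30.1 and 31.1 CPM in control libraries. TGF-β1 raised it (log2 fold change 1.17, SE 0.10, adjusted p = 7.5e-07), and the dexamethasone libraries overlapped the controls. The related genes LIMS3 and LIMS4 held 40 and 95 reads over the 12 libraries against 6488 for LIMS1, and any reads they share with LIMS1 cannot be told apart. PARVA, the widely expressed parvin that links ILK to actin, rose by less (log2 fold change 0.40, SE 0.08, adjusted p = 0.00129). ILK itself was at 0.094 (adjusted p = 0.604), and PARVB at 0.61 (adjusted p = 0.0514; 0.0217 with the block, which calls it higher).

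Of the actin linkers, TNS1 rose, and VCL and TNS3 did not pass the test. TNS1 encodes tensin 1, which joins β chain tails to actin and is typical of mature, fibrillar adhesions. It had 298, 252 and 282 CPM in combined-treatment libraries, 161, 120.0 and 168 CPM in TGF-β1 libraries, 73.5, 84.0 and 74.7 CPM in dexamethasone libraries and 40.5, 41.0 and 34.8 CPM in control libraries. The 4 groups did not overlap, with the combined treatment highest and TGF-β1 next (TGF-β1 against control: log2 fold change 1.96, SE 0.13, adjusted p = 7e-08). VCL, vinculin, was at -0.11 (adjusted p = 0.373) and TNS3, another tensin, at -0.13 (adjusted p = 0.586).

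The transcripts of signalling proteins changed by less than 2-fold with TGF-β1. PTK2, which encodes the focal adhesion kinase FAK, had 166, 165 and 168 CPM in combined-treatment libraries, 203, 193 and 222 CPM in TGF-β1 libraries, 164, 160.1 and 162 CPM in dexamethasone libraries and 163, 154 and 168 CPM in control libraries. It was higher in TGF-β1 libraries than in all other groups (log2 fold change 0.35, SE 0.07, adjusted p = 0.00155). BCAR1, the FAK substrate p130Cas, had 132, 133 and 127 CPM in combined-treatment libraries, 175, 182 and 166 CPM in TGF-β1 libraries, 136, 130.5 and 117 CPM in dexamethasone libraries and 213, 239.8 and 202 CPM in control libraries. Controls were highest, TGF-β1 libraries next (log2 fold change -0.32, SE 0.08, adjusted p = 0.00809) and both groups with dexamethasone lowest. The scaffold paxillin, PXN, rose (log2 fold change 0.30, SE 0.08, adjusted p = 0.00929), and its relative TGFB1I1 (Hic-5), found as a transcript induced by TGF-β1, was at 0.41 (adjusted p = 0.221; 1.62e-05 with the block, which calls it higher). Of the LIM proteins that sit on actin bundles near adhesions, ZYX (zyxin) rose (log2 fold change 0.51, SE 0.12, adjusted p = 0.00488) and CSRP1, which binds zyxin and α-actinin, fell (log2 fold change -0.99, SE 0.28, adjusted p = 0.0192). LPP, a relative of zyxin, and TES, which encodes testin, were at 0.057 and 0.074 (adjusted p = 0.698 and 0.83).

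**Figure D3:**
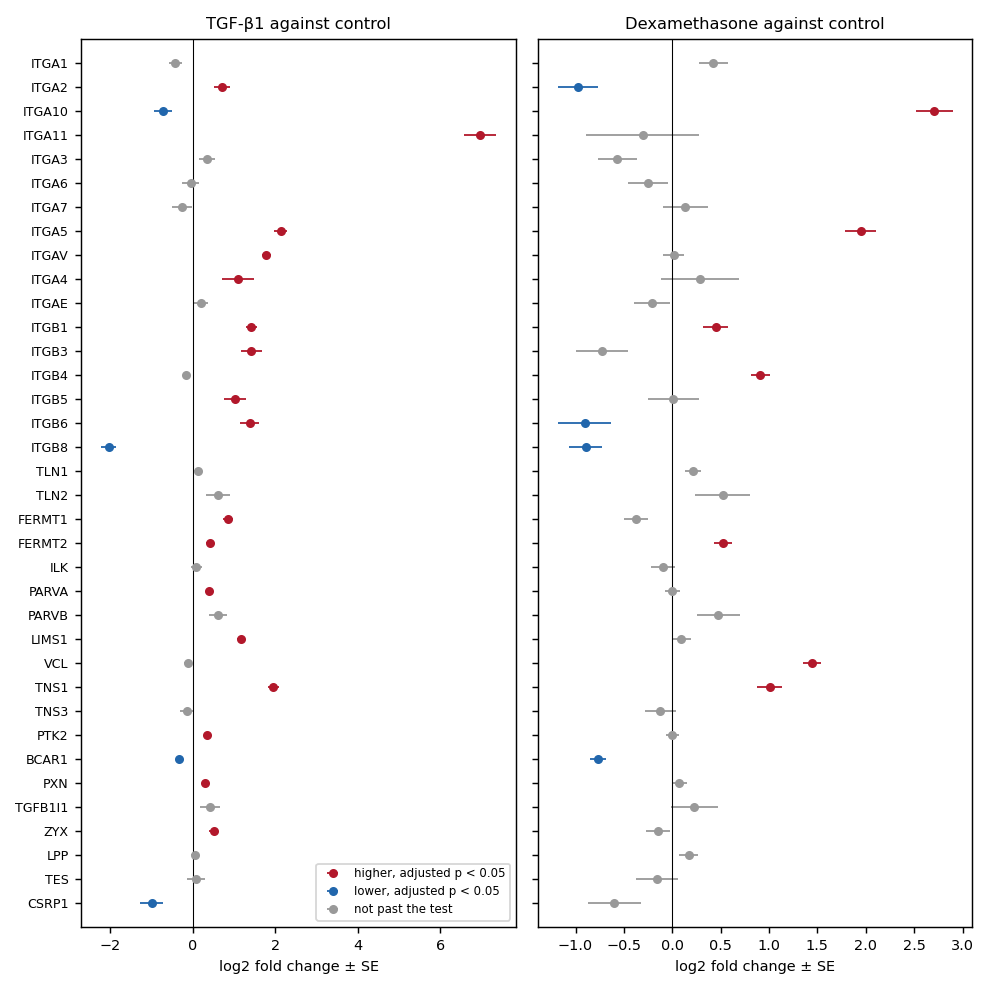
Log2 fold change with its SE (horizontal bars) for each of the 36 genes, TGF-β1 against control on the left and dexamethasone against control on the right, with red and blue for calls at an adjusted p under 0.05 and separate horizontal scales. With TGF-β1 17 genes lie to the right and 4 to the left as calls, from ITGA11 at 6.97 to ITGB8 at -2.03, and with dexamethasone 7 and 4, from ITGA10 at 2.71 to ITGA2 at -0.97.

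Leaving out 1 library changed several calls of TGF-β1 against control. Without control replicate 2 the falls numbered 2 in place of 4, against 14.9% of all tested genes lower in that fit. Of those 2 falls, 1 was among the 4. With 1 library left out, the call was lost for BCAR1 without control replicate 2 (adjusted p up to 0.0523), CSRP1 without control replicate 1 or 2 or TGF-β1 replicate 3 (adjusted p up to 0.0765) and ITGA10 without control replicate 2 or 3 or TGF-β1 replicate 3 (adjusted p up to 0.117). It was also lost for ITGA2 without control replicate 3 or TGF-β1 replicate 1 (adjusted p up to 0.0629), ITGA4 without control replicate 1, 2 or 3, TGF-β1 replicate 1 or 3, dexamethasone replicate 1 or combined replicate 1 (adjusted p up to 0.21) and ITGB5 without control replicate 3 (adjusted p up to 0.06). The same held for PXN without control replicate 3 (adjusted p up to 0.0589). A call was gained for ITGA1 without control replicate 2, TGF-β1 replicate 3 or combined replicate 2 or 3 (adjusted p down to 0.0125), ITGA3 without TGF-β1 replicate 2 (adjusted p down to 0.0436) and PARVB without control replicate 2 (adjusted p down to 0.044). A call was also gained for TLN2 without TGF-β1 replicate 2 or combined replicate 2 (adjusted p down to 0.0318).

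Dexamethasone against control asked what the steroid did without TGF-β1. After 4 h, 7 of the 36 genes were higher and 4 lower, against 5.54% of all tested genes higher and 4.90% lower (10.4% in either direction). With the replicate block these were 11 and 10 (10.8% of all tested genes higher and 11.4% lower, 22.2% in either direction), and scaling by library size alone gave 6 and 6 (4.81% of all tested genes higher and 6.33% lower). The rises were ITGA10, ITGA5, VCL, TNS1, ITGB4, FERMT2 and ITGB1, and the falls ITGA2, ITGB8, ITGB6 and BCAR1. The median of the 36 was 0.01, against 0.0035 for all tested genes.

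ITGA10 changed most (log2 fold change 2.71, SE 0.19, adjusted p = 3.58e-07). The lowest dexamethasone library had 4.48 times the CPM of the highest control. ITGA5 rose next furthest (log2 fold change 1.95, SE 0.16, adjusted p = 1.64e-06). VCL, the actin linker recruited to talin when an adhesion bears force, had 675, 712 and 565 CPM in combined-treatment libraries, 400.2, 370.2 and 365 CPM in TGF-β1 libraries, 1168, 1115 and 1067 CPM in dexamethasone libraries and 436, 402 and 391 CPM in control libraries. It was highest with dexamethasone alone (log2 fold change 1.45, SE 0.09, adjusted p = 1.41e-07), and the combined treatment lay between those libraries and the controls. Of the exon bases of VCL, 16.6% overlap AP3M1 on the other strand, and with a kit that does not keep the strand, reads there cannot be told apart.

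ITGB4 had 1478, 1503 and 1576 CPM in combined-treatment libraries, 603, 468 and 552 CPM in TGF-β1 libraries, 1104, 1234 and 1039 CPM in dexamethasone libraries and 610.4, 594 and 592 CPM in control libraries. It rose with dexamethasone (log2 fold change 0.91, SE 0.10, adjusted p = 1.49e-05) and was highest with the combined treatment. Its partner chain ITGA6 was at -0.25 (adjusted p = 0.628). TNS1 (log2 fold change 1.00, SE 0.12, adjusted p = 6.64e-05) and FERMT2 (log2 fold change 0.52, SE 0.09, adjusted p = 0.00176) also rose, and ITGB1 did by a smaller step (log2 fold change 0.45, SE 0.13, adjusted p = 0.041). ITGA2 (log2 fold change -0.97, SE 0.21, adjusted p = 0.00717), ITGB8 (log2 fold change -0.90, SE 0.17, adjusted p = 0.00311), ITGB6 (log2 fold change -0.90, SE 0.27, adjusted p = 0.0493) and BCAR1 (log2 fold change -0.77, SE 0.08, adjusted p = 1.57e-05) fell. With the block, ITGA1, TLN1, TLN2 and TGFB1I1 were also called higher (log2 fold changes 0.42, 0.22, 0.52 and 0.23, adjusted p at most 0.0158). The block also called lower ITGA3, ITGB3, FERMT1, ZYX, TES and CSRP1 (log2 fold changes -0.57, -0.73, -0.35, -0.15, -0.16 and -0.61, adjusted p at most 0.0498). With 1 library left out, the call was lost for ITGB1 without control replicate 1, 2 or 3, TGF-β1 replicate 1, dexamethasone replicate 2 or 3 or combined replicate 1 (adjusted p up to 0.148) and ITGB6 without control replicate 1 or 3, TGF-β1 replicate 3, dexamethasone replicate 1, 2 or 3 or combined replicate 1 or 3 (adjusted p up to 0.18). A call was gained for FERMT1 without control replicate 2 (adjusted p down to 0.0484), ITGA1 without TGF-β1 replicate 2 (adjusted p down to 0.0324) and ITGA3 without TGF-β1 replicate 2 or combined replicate 2 (adjusted p down to 0.0412).

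The combined treatment against TGF-β1 asked what dexamethasone did in cells that TGF-β1 had already acted on. Of the 36 genes, 5 were higher and 4 lower, against 5.09% of all tested genes higher and 3.01% lower (8.11% in either direction). With the block, 7 were higher and 7 lower, against 9.47% of all tested genes higher and 8.00% lower (17.5% in either direction). The 5 rises were ITGA10 (log2 fold change 2.22, SE 0.20, adjusted p = 6.31e-06), ITGA5 (log2 fold change 1.62, SE 0.15, adjusted p = 9.4e-06), ITGB4 (log2 fold change 1.49, SE 0.10, adjusted p = 2.38e-07), TNS1 (log2 fold change 0.89, SE 0.12, adjusted p = 0.000159) and VCL (log2 fold change 0.78, SE 0.09, adjusted p = 5.16e-05). All 5 had also risen with dexamethasone alone. The number of all tested genes that rose, or fell, in both comparisons was not counted, so such overlaps are not read as a trait of the members. These comparisons share no library, but they share a common estimate of the spread. Their libraries of the same replicate number also deviated together, so the comparisons are not independent. In each of the 5 genes the 3 combined libraries lay above the 3 TGF-β1 libraries. The falls were ITGA2 (log2 fold change -1.17, SE 0.20, adjusted p = 0.00186), FERMT1 (log2 fold change -0.53, SE 0.11, adjusted p = 0.00832), BCAR1 (log2 fold change -0.42, SE 0.08, adjusted p = 0.00467) and PTK2 (log2 fold change -0.31, SE 0.07, adjusted p = 0.0114), of which ITGA2 and BCAR1 had fallen with dexamethasone alone. ITGB6 and ITGB8, which had fallen with dexamethasone alone, were at 0.0017 and -0.15 (adjusted p = 0.998 and 0.829). With the block, ITGAV and TGFB1I1 were also higher (0.19 and 0.39, adjusted p = 0.0151 and 0.000163). ITGA3, ITGA7 and CSRP1 were then lower (-0.27, -0.41 and -0.48, adjusted p at most 0.0355). With 1 library left out, the call was lost for PTK2 without TGF-β1 replicate 3 (adjusted p up to 0.0688). A call was gained for TNS3 without combined replicate 2 (adjusted p down to 0.0203).

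**Figure D4:**
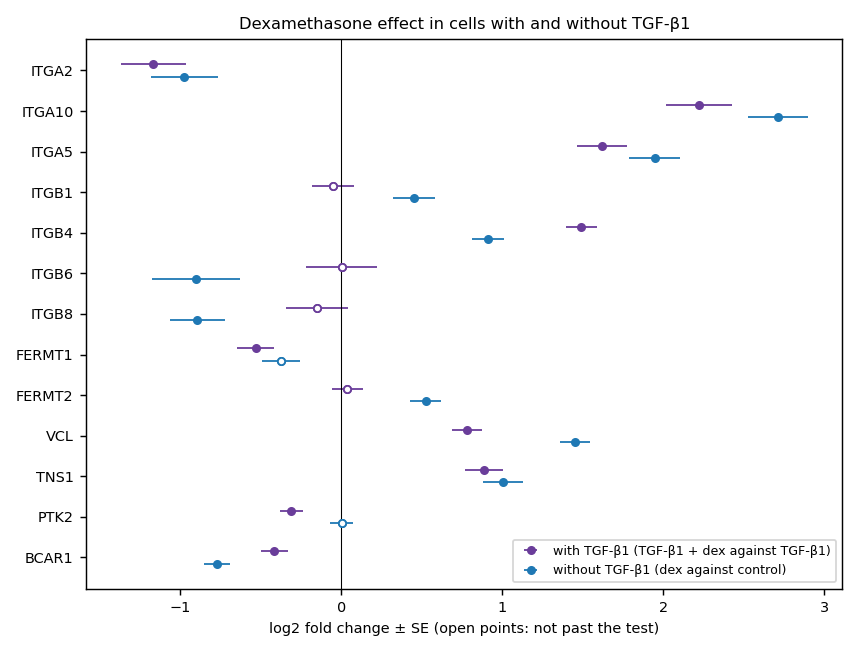
Log2 fold change with its SE for dexamethasone in cells with TGF-β1 (upper point of each pair) and without it (lower point), for the 13 genes past the test in at least 1 of the comparisons, with open points where the test was not passed. ITGA10, ITGA5, ITGB4, VCL and TNS1 lie to the right of 0 in both, ITGA2 and BCAR1 to the left in both, and VCL is at 0.78 with TGF-β1 and 1.45 without.

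Whether the steroid's effect differed between these backgrounds was tested by the interaction, that is, the effect in TGF-β1-treated cells minus the effect in cells without TGF-β1. VCL passed (log2 fold change -0.67, SE 0.13, adjusted p = 0.0276), the single member to do so, against 0.483% of all tested genes positive and 0.401% negative (0.884% in either direction). Its rise with dexamethasone was 0.78 with TGF-β1 and 1.45 without, both on the log2 scale. With 1 library left out, the call was lost for VCL without control replicate 1, 2 or 3, TGF-β1 replicate 1 or 3, dexamethasone replicate 1 or 2 or combined replicate 1 or 3 (adjusted p up to 0.101). With the block, 4 members were positive and 3 negative, against 3.01% of all tested genes positive and 1.77% negative (4.78% in either direction). ITGB6 was at 0.96 (adjusted p = 0.0104), ITGB8 at 0.75 (adjusted p = 0.0013) and BCAR1 at 0.36 (adjusted p = 0.00486), so in each the effect was less negative, or near 0, with TGF-β1 present. ITGB4 was at 0.58 (adjusted p = 0.0143), a larger rise with TGF-β1 present. FERMT2 at -0.50 and PTK2 at -0.31 were negative (adjusted p = 0.000692 and 0.0104). ITGA5, at -0.33 (adjusted p = 1, 95% interval -0.79 to 0.13), and ITGA10, at -0.49 (adjusted p = 0.9, 95% interval -1.08 to 0.10), did not pass in either fit.

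The combined treatment against dexamethasone gave the TGF-β1 effect in the presence of the steroid. Of the 36 genes, 16 were higher and 6 lower, against 15.9% of all tested genes higher and 16.4% lower (32.3% in either direction). Of the 17 rises with TGF-β1 alone, 13 were rises here too. How many of all tested genes rose in both comparisons was not counted, so this overlap is not read as a trait of the members. These comparisons share no library, but through the common estimate of the spread and the paired replicate numbers they too are not independent. ITGA11 rose by 6.77 on the log2 scale, ITGB6 by 2.29, ITGAV by 1.96, ITGB3 by 1.88, TNS1 by 1.84 and ITGA5 by 1.81 (adjusted p at most 0.000275). ITGA3, ITGB4 and PARVB rose here (0.65, 0.43 and 0.64) and did not pass with TGF-β1 alone, where ITGB4 was called lower (-0.36) with library size alone. In the interaction none of these 3 genes passed in edgeR's test as fitted here. ITGB4 passed with the block, with DESeq2, with library size alone, with no filter and without replicate 2 of every group. It passed in no fit that left out 1 library, nor with DESeq2's size factors within edgeR or without replicate 3 of every group. PARVB was low, with 422 reads over the 12 libraries. Its rise against dexamethasone was not called with DESeq2, library size alone or no filter (adjusted p = 0.076, 0.12 and 0.088). That of ITGA3 was not called with library size alone or no filter (adjusted p = 0.065 and 0.12). The falls were ITGB8 (-1.29), ITGA10 (-1.21), CSRP1 (-0.88), ITGA7 (-0.80), VCL (-0.78) and ITGA1 (-0.69), with adjusted p at most 0.0343. With the block, 23 were higher and 6 lower, against 24.0% of all tested genes higher and 26.0% lower (49.9% in either direction). ITGA2, ITGA4, ITGAE, TLN2, ILK, TGFB1I1 and TES were the 7 added (adjusted p at most 0.0303). With 1 library left out, the call was lost for CSRP1 without control replicate 1, dexamethasone replicate 1 or 2 or combined replicate 1, 2 or 3 (adjusted p up to 0.128), ITGA3 without dexamethasone replicate 2 or 3 or combined replicate 1 or 3 (adjusted p up to 0.112) and ITGA7 without dexamethasone replicate 1 or 3 or combined replicate 2 or 3 (adjusted p up to 0.0735). It was also lost for PARVB without dexamethasone replicate 3 or combined replicate 1 or 2 (adjusted p up to 0.169). A call was gained for ITGA2 without TGF-β1 replicate 2 or combined replicate 2 (adjusted p down to 0.00686), ITGA4 without TGF-β1 replicate 2 or combined replicate 2 (adjusted p down to 0.0172) and ITGAE without control replicate 3, TGF-β1 replicate 3 or combined replicate 3 (adjusted p down to 0.0395). A call was also gained for TGFB1I1 without dexamethasone replicate 2 (adjusted p down to 0.0429), TLN2 without combined replicate 2 (adjusted p down to 0.0425) and TNS3 without combined replicate 2 (adjusted p down to 0.0067).

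The combined treatment against control changed the most members, 22 higher and 4 lower, against 18.5% of all tested genes higher and 18.1% lower (36.6% in either direction). With the block these were 25 and 7 (26.5% of all tested genes higher and 26.7% lower, 53.1% in either direction), and with library size alone 13 and 8 (10.5% of all tested genes higher and 39.7% lower). ITGA11 (log2 fold change 6.46, SE 0.39, adjusted p = 3.46e-07), ITGA5 (log2 fold change 3.76, SE 0.17, adjusted p = 4.16e-09), TNS1 (log2 fold change 2.85, SE 0.13, adjusted p = 2.82e-09) and ITGAV (log2 fold change 1.98, SE 0.11, adjusted p = 1.47e-08) rose furthest. ITGA5 averaged 1543 ± 135 CPM in combined-treatment cells and 114 ± 10.5 CPM in control cells (SD, n = 3 each). TNS1 averaged 277 ± 23.6 CPM in combined-treatment cells and 38.8 ± 3.42 CPM in control cells (SD, n = 3 each). ITGB4 (1.34), ITGA10 (1.50) and VCL (0.67), which were not among the rises with TGF-β1 alone, were higher (adjusted p at most 6.1e-05). TLN1, TLN2 and TGFB1I1 passed here (0.26, 0.89 and 0.80, adjusted p at most 0.0331), and with library size alone TLN1 was at -0.0056. The falls were ITGB8 (-2.18), CSRP1 (-1.48), BCAR1 (-0.74) and ITGA7 (-0.67), with adjusted p at most 0.0494. With the block, ITGAE, ILK and LPP were also called higher and ITGA1, ITGA2 and ITGA6 lower (adjusted p at most 0.0485). With 1 library left out, the call was lost for FERMT1 without control replicate 2 or 3, TGF-β1 replicate 1 or 3 or combined replicate 1, 2 or 3 (adjusted p up to 0.176), ITGA4 without control replicate 2 or 3 or combined replicate 1 or 3 (adjusted p up to 0.193) and ITGA7 without control replicate 1 or 3, TGF-β1 replicate 3, dexamethasone replicate 1, 2 or 3 or combined replicate 2 or 3 (adjusted p up to 0.148). It was also lost for TGFB1I1 without control replicate 1 or 3 or combined replicate 1 or 2 (adjusted p up to 0.099), TLN1 without control replicate 2 or 3 or combined replicate 1 or 3 (adjusted p up to 0.107) and TLN2 without control replicate 1, 2 or 3 or combined replicate 1 or 3 (adjusted p up to 0.114). The same held for ZYX without control replicate 3 (adjusted p up to 0.0757). A call was gained for ITGA2 without combined replicate 3 (adjusted p down to 0.0369), LPP without dexamethasone replicate 2 (adjusted p down to 0.0382) and TNS3 without combined replicate 2 (adjusted p down to 0.0245).

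To set chains against each other, CPM was divided by the length of each gene's longest annotated protein-coding transcript (CPM per kb). Summed over the 11 α chains, this level was 705 to 922 in combined-treatment libraries, 533 to 738 with TGF-β1, 369.6 to 437 with dexamethasone and 379 to 454 in controls. ITGA3 was the largest α chain in controls, with 73.4% to 78.9% of the α sum, and made up 35.5% to 43.4% in combined-treatment libraries, 56.7% to 63.9% with TGF-β1 and 49.6% to 58.0% with dexamethasone. ITGA5 made up 39.3% to 45.3% of the α sum in combined-treatment libraries, 16.6% to 17.2% with TGF-β1, 20.8% to 30.1% with dexamethasone and 5.39% to 6.90% in controls. The ratio of ITGA5 to ITGA3 per kb was 0.949, 1.27 and 0.909 in the combined-treatment libraries, 0.260, 0.303 and 0.269 with TGF-β1, 0.411, 0.606 and 0.364 with dexamethasone, and 0.0779, 0.0940 and 0.0689 in controls. The fibronectin receptor chain was thus near the laminin receptor chain in the combined treatment and far below it in controls, and the ratio did not overlap between any of the 4 groups.

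Over the 6 β chains the sum was 792 to 970.1 CPM per kb in combined-treatment libraries, 586 to 832 with TGF-β1, 485 to 543 with dexamethasone and 349.7 to 354 in controls. ITGB1 made up 56.7% to 61.2% of it in combined-treatment libraries, 70.4% to 75.8% with TGF-β1, 50.4% to 56.3% with dexamethasone and 54.2% to 59.1% in controls. ITGB4 was second throughout, with 27.5% to 32.1% in combined-treatment libraries, 11.2% to 13.6% with TGF-β1, 36.1% to 38.5% with dexamethasone and 28.2% to 29.4% in controls. Its share was lowest with TGF-β1, where ITGB1 rose and ITGB4 did not pass the test. ITGB6 and ITGB8 made up at most 0.602% and 3.19% of the β sum in any library. These shares rest on 1 transcript length a gene and describe RNA, not protein at the cell surface.

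**Figure D5:**
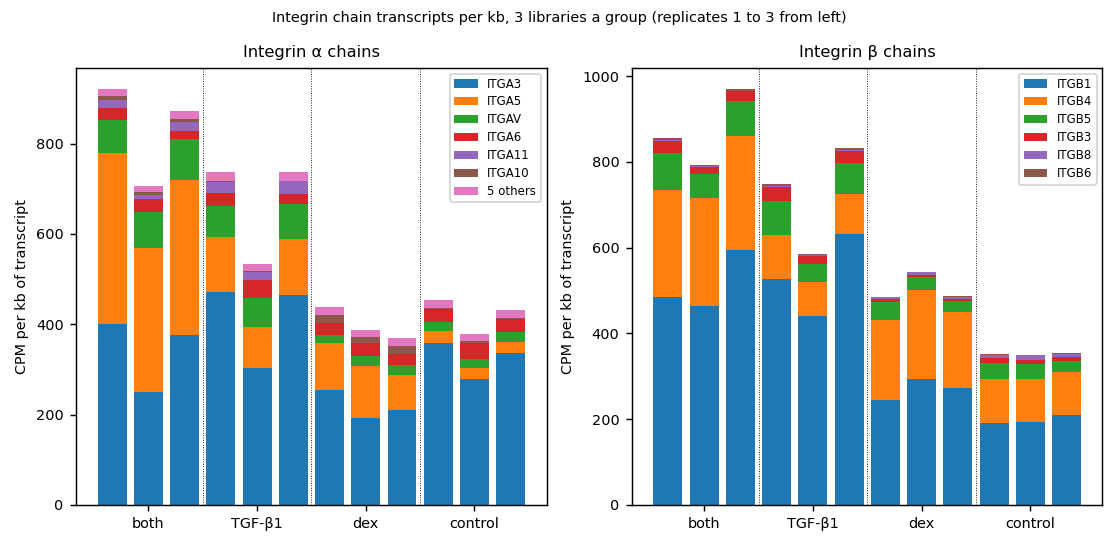
CPM per kb of transcript stacked by chain for 11 α chains (left) and 6 β chains (right) in each of 12 libraries, with "both" for the combined treatment and replicates 1 to 3 from left in each group. ITGA5 takes 39.3% to 45.3% of the α stack in the combined treatment and 5.39% to 6.90% in control, and ITGB4 takes 11.2% to 13.6% of the β stack with TGF-β1.

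Other genes of the pathway came from lists given by name. The 9 remaining integrin chains (such as ITGA9, ITGAM and ITGB2) were all too low to test, at no more than 2.17 CPM in any library. Of 35 integrin ligands 30 were tested: with TGF-β1, 17 rose and 5 fell (median 0.82 on the log2 scale), led by COL6A3 (5.64) and TGFBI (5.54) upward and LAMA5 (-1.61) and VTN (-1.49) downward. Mean levels with TGF-β1 and in controls were 55.4 and 1.3 CPM for COL6A3 and 10980 and 237 CPM for TGFBI. They were 219 and 671 CPM for LAMA5, and only 1.2 and 3.4 CPM for VTN. With dexamethasone, 2 ligands rose, LTBP1 (1.02) and LAMB1 (0.75), and 2 fell, TGFB3 (-2.45) and LAMB3 (-0.87). LTBP1 encodes a protein that anchors latent TGF-β in the matrix and TGFB3 a TGF-β ligand.

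Of 42 other adhesion adaptors and kinases 39 were tested, and TGF-β1 raised 8 and lowered 8, against 16.2% of all tested genes higher and 16.6% lower. Their median was -0.0072 on the log2 scale, close to the -0.0090 of all tested genes. The largest rises were KANK4 (3.93), of a family that binds talin, and NEDD9 (3.73), a relative of BCAR1, and the largest falls SORBS3 (-1.19), which encodes the vinculin partner vinexin, and LIMD1 (-0.82). Dexamethasone raised 9, led by NEXN (2.64), an actin-binding protein, and PTK2B (1.62), the FAK relative PYK2, and lowered 3, led by FHL2 (-0.81) and LIMD1 (-0.72). NEDD9 averaged 90.2 ± 15.4 CPM in combined-treatment cells, 57.0 ± 17.1 with TGF-β1, 11.4 ± 1.75 with dexamethasone and 4.14 ± 1.74 in controls (SD, n = 3 each), and so differed in direction from BCAR1. Of 4 hemidesmosome partners of ITGB4, CD151 rose (0.92) and DST fell (-0.58) with TGF-β1, and DST fell with dexamethasone (-0.30). Of 18 tested regulators of integrin activity and traffic, 5 rose and 4 fell with TGF-β1, among them DAB2 (1.03), RAB5A (0.43), CD9 (-1.33) and RAB25 (-0.65), and 2 rose with dexamethasone, RAP1A (0.26) and ARF6 (0.25). All of these named genes passed edgeR's test in the comparison given, with adjusted p at most 0.047, and the shares of all tested genes called are those printed above for the same comparisons.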

How the data were processed

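RNA was measured in 12 libraries of BEAS-2B cells. Per the labels' protocols, 500 ng of total RNA with an RNA integrity number above 8 was selected for polyadenylated RNA and prepared with a kit that does not keep the strand. The authors deposited raw read counts per gene, made with featureCounts on hg38 per the submitters' processing notes; neither note nor label gives its version, an aligner, an annotation or a strand setting. The table had 28395 Entrez rows and 18 count columns, of which 6 match no label and were not used. Symbols and coordinates came from RefSeq on GRCh38.p14, which matched 27745 rows holding 99.943% of counts.

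The counts were fitted with edgeR 4.0.16 in R 4.3.3 (limma 3.58.1): filterByExpr with a minimum count of 10, TMM scaling, 1 mean per group over all 12 libraries, robust dispersion and the quasi-likelihood F test, with Benjamini-Hochberg adjustment over 13469 genes and a threshold of 0.05. Standard errors follow from the fold change and F. The script was tested on simulated counts. CPM per kb used the longest protein-coding transcript of GENCODE on GRCh38, and figures were drawn with matplotlib 3.10.9. After removal of group means, libraries of the same number correlated over genes at 0.25 to 0.541 in 18 of 18 pairs, so the numbers were taken to pair the libraries. Libraries of different numbers correlated at -0.422 to 0.042. Removing group means pushes these values down where same-number values are positive, so they are not separate evidence. That pairing comes from the data, since the labels do not say what a number marks. The biological coefficient of variation was 0.122 without the block and 0.0577 with it. Alternatives were the replicate block, DESeq2 1.42.0 with its size factors, those factors within edgeR, library size alone, no filter, and libraries left out singly or by replicate 2 or 3.

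Values in every library are given for genes past the test and changed at least 2-fold with TGF-β1, or past the test for dexamethasone or the interaction. For the other pathway lists, up to 2 genes in each direction with the largest change past the test are named. The members and lists were chosen with earlier results of these data known. Without molecular identifiers, reads of 1 molecule can repeat. The p-values rest on the spread between libraries within groups, estimated over all groups together.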

Additional observations from a re-analysis of the deposited data

Results flagged for a closer look

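Whether the effect of dexamethasone differed between cells with and without TGF-β1 was tested as the interaction (the log2 effect in TGF-β1-treated cells minus that in cells without TGF-β1). In edgeR's test 1 of the 36 genes passed without the replicate block, where 0.884% of all tested genes did, and 7 passed with it, where 4.78% did. VCL was at -0.67 without the block (adjusted p = 0.0276), with a rise of 0.78 with TGF-β1 and 1.45 without, and its call was lost in 9 of the 12 fits that left out 1 library. The other 6 did not pass in that test and passed with the block, whose values follow. ITGB4 was at 0.58 (rises of 1.49 with TGF-β1 and 0.91 without), and also passed with DESeq2, with library size alone, with no filter and without replicate 2 of every group (adjusted p = 0.00586, 0.0379, 0.0252 and 0.0467). ITGB6 was at 0.96 (0.0017 with TGF-β1 and -0.90 without), ITGB8 at 0.75 (-0.15 with and -0.90 without) and BCAR1 at 0.36 (-0.42 with and -0.77 without). FERMT2 was at -0.50 (0.037 with and 0.52 without) and PTK2 at -0.31 (-0.31 with and 0.0009 without). The effects with and without TGF-β1 are from edgeR without the block.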

How the results depend on the processing

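Counts below are of the 36 genes, as rises and falls. After each pair of counts, except where stated, the share of all tested genes called higher and lower in that fit stands in brackets. With the replicate block there were 22 and 5 (24.6% and 25.5%) with TGF-β1 against control, 11 and 10 (10.8% and 11.4%) with dexamethasone against control, 7 and 7 (9.47% and 8.00%) in the combined treatment against TGF-β1, 25 and 7 (26.5% and 26.7%) against control and 4 and 3 (3.01% and 1.77%) in the interaction, and no call was lost with it. With library size alone there were 12 and 7 (9.29% and 32.2%) with TGF-β1 against control, 13 and 8 (10.5% and 39.7%) in the combined treatment against control and 1 and 1 (0.535% and 0.379%) in the interaction. PTK2 and TLN1 then turned negative in the combined treatment against control. PTK2 was called lower (-0.22, adjusted p = 0.016), and TLN1 did not pass the test (-0.0056, adjusted p = 0.955). Without replicate 3 of every group, which holds most of the reads, there were 12 and 4 (9.72% and 10.1%) with TGF-β1 against control, 5 and 2 (3.65% and 2.31%) with dexamethasone against control, 5 and 2 (3.30% and 1.20%) in the combined treatment against TGF-β1, 11 and 5 (9.44% and 8.07%) against dexamethasone, 15 and 3 (12.8% and 11.4%) against control and 0 and 0 (0.0446% and 0.0372%) in the interaction. Of 216 gene results, 29 lost their call without replicate 3 and 3 gained one. Without replicate 2 of every group, 5 lost their call and 15 gained one. That fit gave 20 and 3 (14.8% and 14.7%) with TGF-β1 against control and 7 and 5 (5.02% and 4.67%) with dexamethasone against control. In the combined treatment it gave 6 and 5 (4.68% and 2.70%) against TGF-β1 and 20 and 5 (14.9% and 14.7%) against dexamethasone. The interaction had 1 and 1 (0.343% and 0.249%) with no filter, 1 and 1 (1.00% and 0.587%) with DESeq2 and 1 and 1 (0.721% and 0.453%) without replicate 2 of every group. Leaving out single libraries gave 13 to 19 rises and 2 to 5 falls with TGF-β1 against control, 6 to 8 and 3 to 5 with dexamethasone against control, 5 to 6 and 3 to 4 in the combined treatment against TGF-β1, 14 to 19 and 4 to 6 against dexamethasone, 16 to 23 and 3 to 4 against control, and 0 and 0 to 1 in the interaction. DESeq2's size factors within edgeR changed 2 of 216 gene results, no filter 11 and DESeq2 7. The cause of these changes was not tested. Replicates 1 and 2 hold at most 7008203 reads each and replicate 3 at least 17968961, and the part of depth in these changes was not tested.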
